A study of Mus musculus with 35 samples.

Results

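The nuclear pore complex and the receptors that carry cargo through it were followed in mouse bone marrow progenitors that expressed a leukemia fusion of a nucleoporin. The members are 43 genes of nucleoporins, nuclear transport receptors and the Ran cycle. The rule that picks them from the 49671 genes of the count table uses gene names and no measured value, but the names were chosen with earlier results of these data known. All 43 were among the 17166 genes that passed the filter on low counts.

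The study asked how the FG motifs and the DNA-binding part of the fusion NUP98–HOXA9 (NHA9) bear on gene expression in lin- HSPCs, which are bone marrow cells depleted of mature lineage cells. The cells came from male and female C57Bl/6 mice and were infected with lentivirus, sorted by flow cytometry 2 days later, and grown for 1 week in semisolid medium (Methocult M3434) to which GM-CSF was added at 10 ng/mL. RNA was sequenced from 5 libraries of each of 7 groups. Sorting took mCherry-positive cells for the empty vector and cells positive for both mCherry and mEGFP for the constructs, so that every construct group had also passed a gate that Empty had not.

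The groups are named here as in the labels. Empty is the empty vector, whose cells were sorted as mCherry-positive. G-NHX9 (G-NHA9 in the study) is the mEGFP-tagged fusion of the FG-rich N-terminal part of NUP98 with the homeodomain part of HOXA9. In G-NHX9-8FA, phenylalanines of FG motifs are replaced by alanine. In G-NHX9-21FGAA, FG pairs are replaced by alanine pairs. G-NHX9-midi keeps only the C-terminal part of the NUP98 segment and lacks the GLEBS motif, the stretch that binds RAE1. G-NHX9-midi-21FGAA is the same short form with no FG motif left. G-NHX9-DDNA carries mutations in the homeodomain that weaken DNA binding. Mice were 8 weeks old for 32 libraries, and 9 weeks for Empty 4, 10 weeks for Empty 5 and 11 weeks for G-NHX9 1. These are bulk cultures of mixed myeloid cells, in which fewer cells of a type and less RNA per cell cannot be told apart.

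The nuclear pore complex is a ring-shaped channel built from many copies of each nucleoporin. The Y complex and the inner ring form its scaffold, membrane nucleoporins anchor it, and FG nucleoporins such as NUP98 and NUP62 fill the channel with disordered repeats. Importins and exportins carry cargo by binding those repeats, and the GTPase RAN gives transport its direction because RCC1 charges it with GTP in the nucleus and RANGAP1 discharges it in the cytoplasm.

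Total counts per library were between 31559914 and 75810659, with a median of 45464263, and members took 0.318% to 0.572% of them. Values below are CPM, reads of a gene scaled to a common library size by TMM, which corrects for differences in RNA composition, and libraries are listed in the order of their numbers 1 to 5. As a check of the labels, Hoxa9, the gene whose part the constructs carry, was between 0.693 and 1.26 CPM in Empty and between 79.3 and 113 CPM in G-NHX9. Its range was 28.5 to 41.5 CPM in G-NHX9-8FA, 25.5 to 44.4 CPM in G-NHX9-midi and 16.9 to 23.0 CPM in G-NHX9-DDNA. The ranges of G-NHX9-21FGAA (1.00 to 5.15 CPM) and G-NHX9-midi-21FGAA (0.242 to 2.18 CPM) overlapped with that of Empty, so Hoxa9 could not check the labels of these groups. Counts do not separate the endogenous gene from the construct. Stem and progenitor markers summed to 219.8 to 667.8 CPM over all libraries and neutrophil markers to 5656 to 33750 CPM, and the labelled lin- HSPCs are the cells that were infected, before a week of culture. The stem and progenitor sums were 219.8 to 309.2 CPM in Empty, below the 525.8 to 667.8 of G-NHX9 and 442.5 to 633.1 of G-NHX9-21FGAA. In the other constructs they were 251.7 to 644.3 CPM and reached into the range of Empty. The stem and progenitor genes did not all move alike. In G-NHX9, 5 of 8 were higher and 1 lower, with log2 differences from -0.88 to 5.61. Kit is also in the list of mast cell and basophil markers. Markers of B cells summed to at most 1.62 CPM in any library and those of T and NK cells to at most 2.09 CPM. Stroma and endothelium markers (5 of 6 listed genes tested) summed to 155.9 to 189.8 CPM in Empty and 160.9 to 207.8 in G-NHX9-8FA. Over the other constructs they summed to 190.3 to 250.6 CPM, above Empty. These genes did not move as 1: in G-NHX9, 1 was higher and 1 lower, with log2 differences from -2.49 to 3.88. The other marker lists stand beside the counts of members called.

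Per kilobase of merged exons, the most abundant members in Empty were Ran at 84.7 ± 10.9 CPM per kb (SD, n = 5), the importin alpha gene Kpna2 at 45.04 ± 7.35 and the channel nucleoporin gene Nup62 at 37.3 ± 2.79. The importin beta genes Kpnb1 and Ipo5 followed at 30.6 ± 2.11 and 27.8 ± 2.52 CPM per kb, with overlapping SD ranges. Nup98 stood at 10.3 ± 0.989 CPM per kb, in the middle of the order at rank 21. The lowest were Pom121 at 3.44 ± 2.39, Nup35 at 2.695 ± 0.338 and Nup43 at 2.54 ± 0.331 CPM per kb, and the SD ranges of these last 2 overlapped. All genes were measured in the same 5 libraries, and differences between genes within a library were not tested.

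The first question was whether transport genes differed between each construct and Empty. In 5 of the 6 constructs, about 1 member in 2 rose. In G-NHX9, 24 members rose and 1 fell, where 32.1% of all tested genes were called in either direction, 16.9% higher and 15.2% lower. In G-NHX9-21FGAA, 26 rose and 1 fell (27.1% of all genes called, 14.7% higher and 12.5% lower). In G-NHX9-midi, 22 rose and 1 fell (40.5% called, 20.5% higher and 20% lower). In G-NHX9-midi-21FGAA, 22 rose and 1 fell (16.9% called, 9.59% higher and 7.32% lower), and in G-NHX9-DDNA 24 rose and none fell (17.2% called, 9.85% higher and 7.35% lower). G-NHX9-8FA stood apart with 7 members higher and 1 lower, where 26.6% of all genes were called, 13.4% higher and 13.2% lower. When libraries were scaled by their totals without TMM, its split was 9 higher and none lower. Calls rest on the quasi-likelihood test of edgeR, adjusted by Benjamini-Hochberg over all 17166 genes, and all 6 comparisons share the 5 Empty libraries.

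Changes were small in size. The median log2 difference of the 43 members from Empty was 0.35 in G-NHX9, 0.11 in G-NHX9-8FA, 0.21 in G-NHX9-midi, 0.34 in G-NHX9-21FGAA, 0.29 in G-NHX9-midi-21FGAA and 0.36 in G-NHX9-DDNA. The medians over all tested genes were between -0.02 and 0.03. Members have higher counts than most genes, and in the 10308 tested genes whose mean reached 5 CPM the share called in either direction was 36.5%, 27.9%, 45.1%, 33.9%, 20.9% and 22.5% in the same order of constructs. Summed over members, CPM were 3601 ± 219.8 in Empty, 4343 ± 424.6 in G-NHX9, 3820 ± 214.3 in G-NHX9-8FA and 4119 ± 312.7 in G-NHX9-midi (SD, n = 5). The sums were 4512 ± 449.4 in G-NHX9-21FGAA, 4324 ± 189.4 in G-NHX9-midi-21FGAA and 4500 ± 298.1 in G-NHX9-DDNA.

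Libraries of a construct and of Empty were often separate. Every construct library lay above every Empty library for 13 members in G-NHX9, 5 in G-NHX9-8FA, 11 in G-NHX9-midi, 16 in G-NHX9-21FGAA, 15 in G-NHX9-midi-21FGAA and 15 in G-NHX9-DDNA. The shares of all tested genes with the same property were 10.6%, 8.32%, 13.4%, 9.05%, 5.98% and 5.82%. Kpna1 in G-NHX9 was the 1 member with every library below Empty, a property of 9.51% of all genes there. Without G-NHX9 5, 16 members rather than 25 were called in G-NHX9, and without any 1 of Empty 2, G-NHX9-8FA 4 or G-NHX9-8FA 5, 5 rather than 8 were called in G-NHX9-8FA. Without the 3 libraries from mice of other ages, the number called was 19 in G-NHX9, 3 in G-NHX9-8FA and 13 in G-NHX9-midi. It was 23 in G-NHX9-21FGAA, 12 in G-NHX9-midi-21FGAA and 15 in G-NHX9-DDNA. Calls over all genes fell too. In the same order they were 4771, 3286, 5315, 3293, 1475 and 1942, against 5511, 4564, 6960, 4660, 2903 and 2952 with every library.

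**Figure D1:**
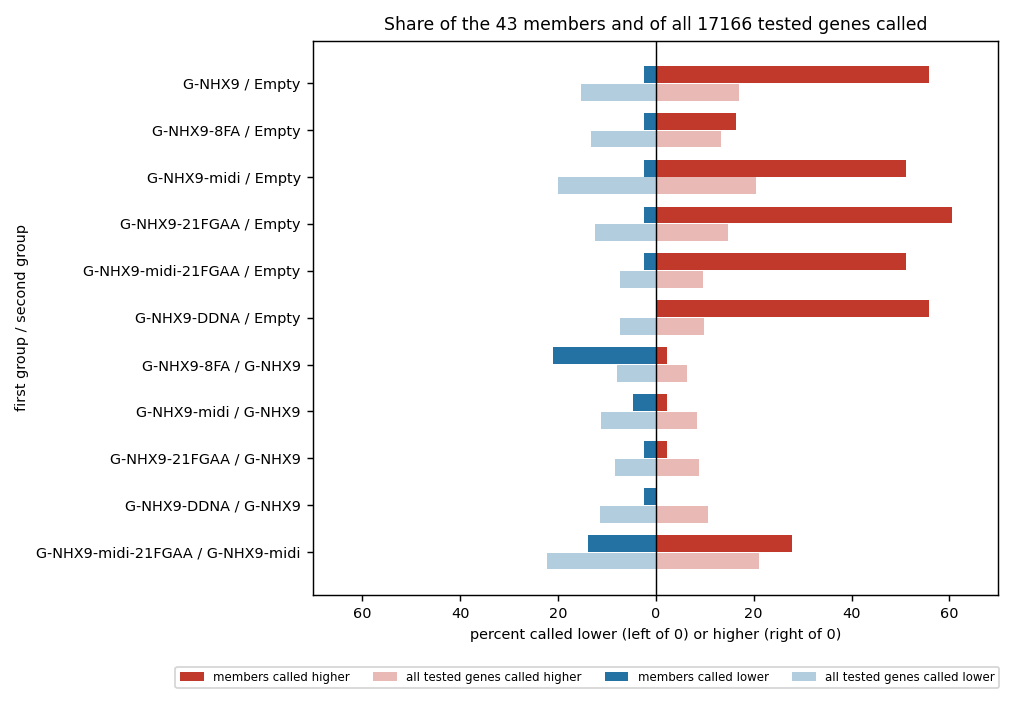
Percentages of the 43 members (solid bars) and of all 17166 tested genes (pale bars) called higher (right of 0) or lower (left of 0) by edgeR in each of the 11 comparisons, with the first group named before the slash. Against Empty, the solid bars on the right are well beyond the pale ones in 5 constructs and close to them in G-NHX9-8FA (7 of 43 members, against 13.4% of all genes).

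Nup107, Nup37, Nup43, Ndc1 and Aaas rose in all 6 constructs, as did 1.47% of all tested genes. Nup133, Nup85, Nup153, Xpo5, Kpnb1, Ran, Rangap1 and Rcc1 rose in all but G-NHX9-8FA, and Rae1 rose in all but G-NHX9-midi-21FGAA. Of all tested genes, 2.63% rose in exactly 5 constructs. The Nup85 call in G-NHX9-midi was lost in 11 of 19 alternative fits, 7 of them with 1 library left out. In none of the constructs did 13 members rise, as was so for 65.8% of all genes: Nup93, Nup188, Pom121, Nup62, Nup214, Tpr, Xpo7, Ipo5, Ipo9, Tnpo1, Kpna1, Kpna3 and Kpna4. Among the 5 that rose in every construct, without the 3 libraries of other ages Nup43 alone did so, and with only the libraries numbered 1 to 3 none did.

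**Figure D2:**
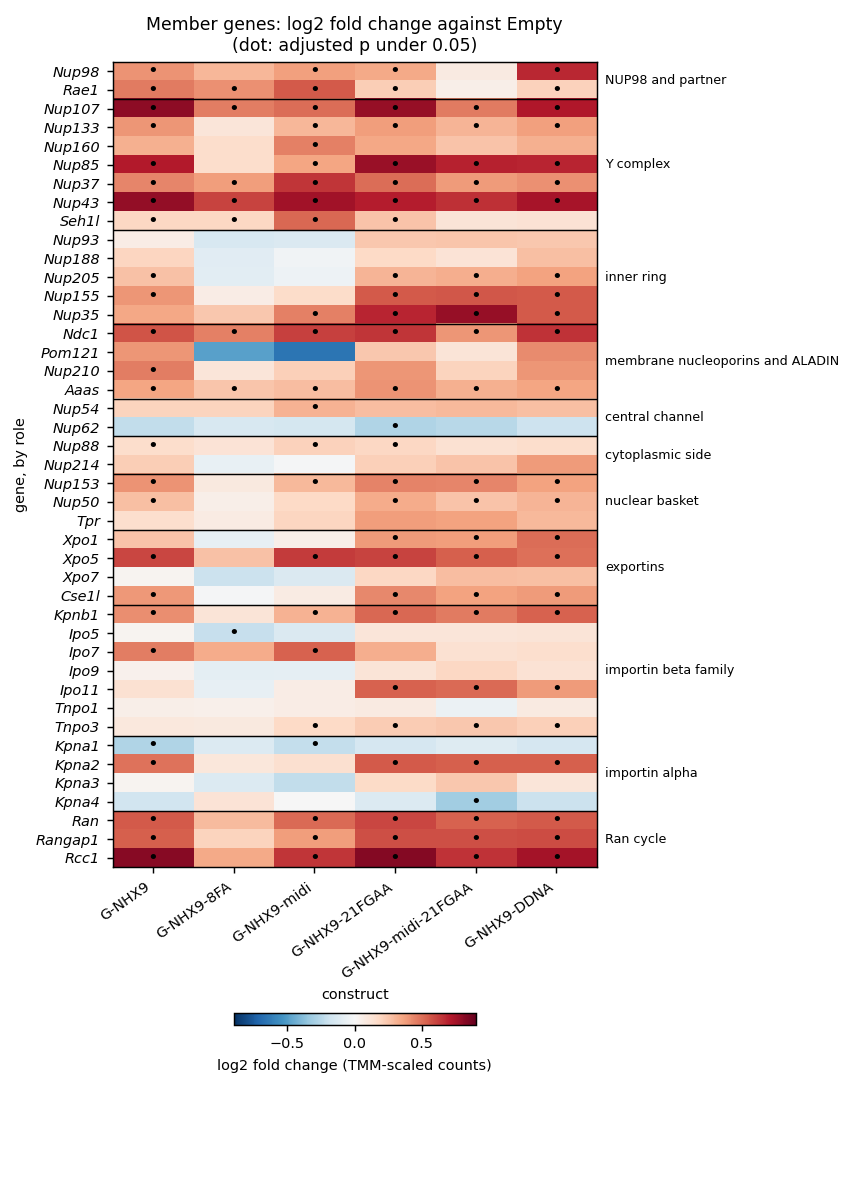
Log2 fold change of each of the 43 members (rows, grouped by role) in the 6 constructs (columns) against Empty, on a colour scale from blue (lower) to red (higher), with a dot where edgeR's adjusted p was under 0.05. Rows of the Y complex and the Ran cycle are red in most columns, the G-NHX9-8FA column is the palest, and Kpna1 and Nup62 are blue throughout.

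Proliferation genes moved with these counts in most constructs, but less so in G-NHX9-midi, where 22 members rose. Of 17 such genes (Mki67, Top2a, cyclins, mitotic kinases, MCM genes and Pcna), 16 rose in G-NHX9, 17 in G-NHX9-21FGAA, 15 in G-NHX9-midi-21FGAA and 17 in G-NHX9-DDNA, but 1 in G-NHX9-8FA and 6 in G-NHX9-midi. Their summed level was 1195 to 2258 CPM in Empty, 2133 to 3018 in G-NHX9, 1427 to 2389 in G-NHX9-8FA and 1346 to 2699 in G-NHX9-midi. It was 2632 to 3212 CPM in G-NHX9-21FGAA, 2693 to 3017 in G-NHX9-midi-21FGAA and 2335 to 3318 in G-NHX9-DDNA. Markers of other cells moved as well. Mast cell and basophil markers summed to 1236 to 3513 CPM in Empty, and to 599.3 to 821.4, 598.2 to 894.5 and 467.4 to 806.7 CPM in G-NHX9, G-NHX9-8FA and G-NHX9-midi, against 2619 to 6626 CPM over the other 3 constructs. Eosinophil markers summed to 1248 to 1750 CPM in Empty and to 34.03 to 977.5 CPM over the same 3 constructs, against 681.1 to 2391 CPM over the others. Erythroid markers (14 of 15 listed genes in the table) summed to 322.7 to 874.4 CPM in Empty, 117.3 to 159.8 in G-NHX9-8FA and 143.5 to 202.8 in G-NHX9-midi. They summed to 302.7 to 791.5 CPM in G-NHX9, 599.7 to 2184 in G-NHX9-21FGAA, 742.8 to 1943 in G-NHX9-midi-21FGAA and 665.1 to 2052 in G-NHX9-DDNA, where 0, 10, 12 and 6 of the 14 genes rose. Markers of early granules (Mpo, Elane, Prtn3, Ctsg and Ms4a3) summed to 126.3 to 583.1 CPM in Empty, 1051 to 1428 in G-NHX9 and 593.6 to 2075 over G-NHX9-8FA, G-NHX9-midi, G-NHX9-21FGAA and G-NHX9-DDNA, with 3 to 5 of 5 genes higher in each of these 5 constructs. In G-NHX9-midi-21FGAA they summed to 186.5 to 458.3 CPM, with none called. Megakaryocyte markers summed to 794.1 to 1415 CPM in Empty, 378.7 to 915.7 in G-NHX9, 306.5 to 386.2 in G-NHX9-8FA and 144.2 to 260.6 in G-NHX9-midi, with 3, 7 and 7 of 7 genes lower. Over the other 3 constructs they summed to 729.3 to 2387 CPM, with 2 genes higher in G-NHX9-21FGAA and none called in the others. Neutrophil markers summed to 8965 to 12860 CPM in Empty and 15190 to 33750 CPM in G-NHX9-8FA, without overlap, against 5656 to 21690 CPM over the other constructs, and macrophage markers to 2952 to 3907 CPM in Empty against 1375 to 3464 CPM over all constructs. The macrophage genes did not move as 1: in G-NHX9, 5 of 10 were lower and 3 higher, with log2 differences from -2.34 to 3.60. The part of proliferation and of cell type in the members' values was not tested.

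Nup98 lies on the minus strand at chr7:102119398-102210176 (mm10, GENCODE M21), with no annotated gene in its span. It encodes the precursor of the FG nucleoporin NUP98 and of NUP96, which is a Y complex subunit. Reads of the constructs may be counted on it, so its value is the sum of the endogenous gene and an unknown part of the construct. Nup98 measured 121, 122, 119, 142 and 144 CPM in the Empty libraries, 169, 148, 145, 185 and 209.8 in G-NHX9 and 204, 180.1, 189.5, 232 and 229.7 in G-NHX9-DDNA. All G-NHX9 and G-NHX9-DDNA libraries lay above all Empty libraries, and the rise was 0.40 ± 0.12 on the log2 scale in G-NHX9 (edgeR adjusted p = 0.0087) and 0.68 ± 0.12 in G-NHX9-DDNA (edgeR adjusted p = 0.00052). Here and below, the ± of a log2 difference is a standard error from the fit to all 35 libraries, and not an SD. Nup98 measured 159, 147, 148, 146 and 198 CPM in G-NHX9-8FA and 171, 177, 163, 140.01 and 186 in G-NHX9-midi. It measured 171, 139, 143, 167 and 199 CPM in G-NHX9-21FGAA and 143, 118, 111, 156 and 157 in G-NHX9-midi-21FGAA. G-NHX9-8FA lay above Empty without overlap, but its difference of 0.30 ± 0.12 did not pass (edgeR adjusted p = 0.058). G-NHX9-midi and G-NHX9-21FGAA overlapped with Empty by their lowest libraries and rose by 0.37 ± 0.12 and 0.34 ± 0.12 (edgeR adjusted p = 0.012 and 0.031). G-NHX9-midi-21FGAA differed from Empty by 0.08 ± 0.12, within the spread of the libraries (edgeR adjusted p = 0.69).

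The order of Nup98 was not that of Hoxa9, whose level was highest in G-NHX9, whereas Nup98 was highest in G-NHX9-DDNA. The difference of Nup98 between these 2 constructs was 0.27 ± 0.12 (edgeR adjusted p = 0.1) and passed with the library number as a replicate block (0.28, edgeR adjusted p = 0.0071). Without G-NHX9 5 the rise in G-NHX9 was 0.31 and did not pass (edgeR adjusted p = 0.07). The rise in G-NHX9-21FGAA was lost without any 1 of Empty 1, 2 or 3 or of G-NHX9-21FGAA 4 or 5 (edgeR adjusted p between 0.051 and 0.1).

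Rae1 encodes an mRNA export factor that binds the GLEBS motif of NUP98 and lies at chr2:173000117-173015739 on the plus strand. Rae1 was at 39.99, 39.5, 37.4, 34.6 and 36.7 CPM in Empty, 49.7, 56.1, 52.9, 51.8 and 50.4 in G-NHX9 and 50.4, 46.9, 45.5, 54.95 and 52.3 in G-NHX9-8FA. It was at 51.4, 55.4, 55.7, 53.8 and 60.1 CPM in G-NHX9-midi and 38.4, 38.97, 38.8, 40.1 and 39.03 in G-NHX9-midi-21FGAA. All libraries of G-NHX9, G-NHX9-8FA and G-NHX9-midi lay above all of Empty, whereas the 5 of G-NHX9-midi-21FGAA lay within the range of Empty or less than 1 CPM above it. Rae1 was at 38.9, 43.03, 40.5, 46.00 and 51.04 CPM in G-NHX9-21FGAA and 43.4, 49.4, 42.9, 42.03 and 40.05 in G-NHX9-DDNA. It rose by 0.47 ± 0.071 in G-NHX9, 0.41 ± 0.071 in G-NHX9-8FA and 0.55 ± 0.071 in G-NHX9-midi (edgeR adjusted p = 4.1e-06, 4.4e-05 and 1.4e-07). These 3 calls held in all 10 fits that left out 1 library. The rises in G-NHX9-21FGAA (0.22 ± 0.071, edgeR adjusted p = 0.018) and G-NHX9-DDNA (0.21 ± 0.071, edgeR adjusted p = 0.037) were smaller. The first was lost without Empty 4, G-NHX9-21FGAA 4 or G-NHX9-21FGAA 5, and the second without Empty 3, 4 or 5 or G-NHX9-DDNA 1, 2 or 3. The difference in G-NHX9-midi-21FGAA was 0.05 ± 0.071 (edgeR adjusted p = 0.66).

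Differences of Rae1 between constructs were tested directly. Rae1 was lower in G-NHX9-midi-21FGAA than in G-NHX9-midi by 0.50 ± 0.071 on the log2 scale (edgeR adjusted p = 6.5e-07), with no overlap between the groups. It was also lower than in G-NHX9 by 0.25 ± 0.071 in G-NHX9-21FGAA and by 0.26 ± 0.071 in G-NHX9-DDNA (edgeR adjusted p = 0.012 and 0.0069), the latter without overlap. The call for G-NHX9-21FGAA was lost without G-NHX9 2, G-NHX9-21FGAA 1 or G-NHX9-21FGAA 2. Rae1 did not pass between G-NHX9 and G-NHX9-8FA (difference -0.06 ± 0.071) or G-NHX9-midi (difference 0.08 ± 0.071).

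**Figure D3:**
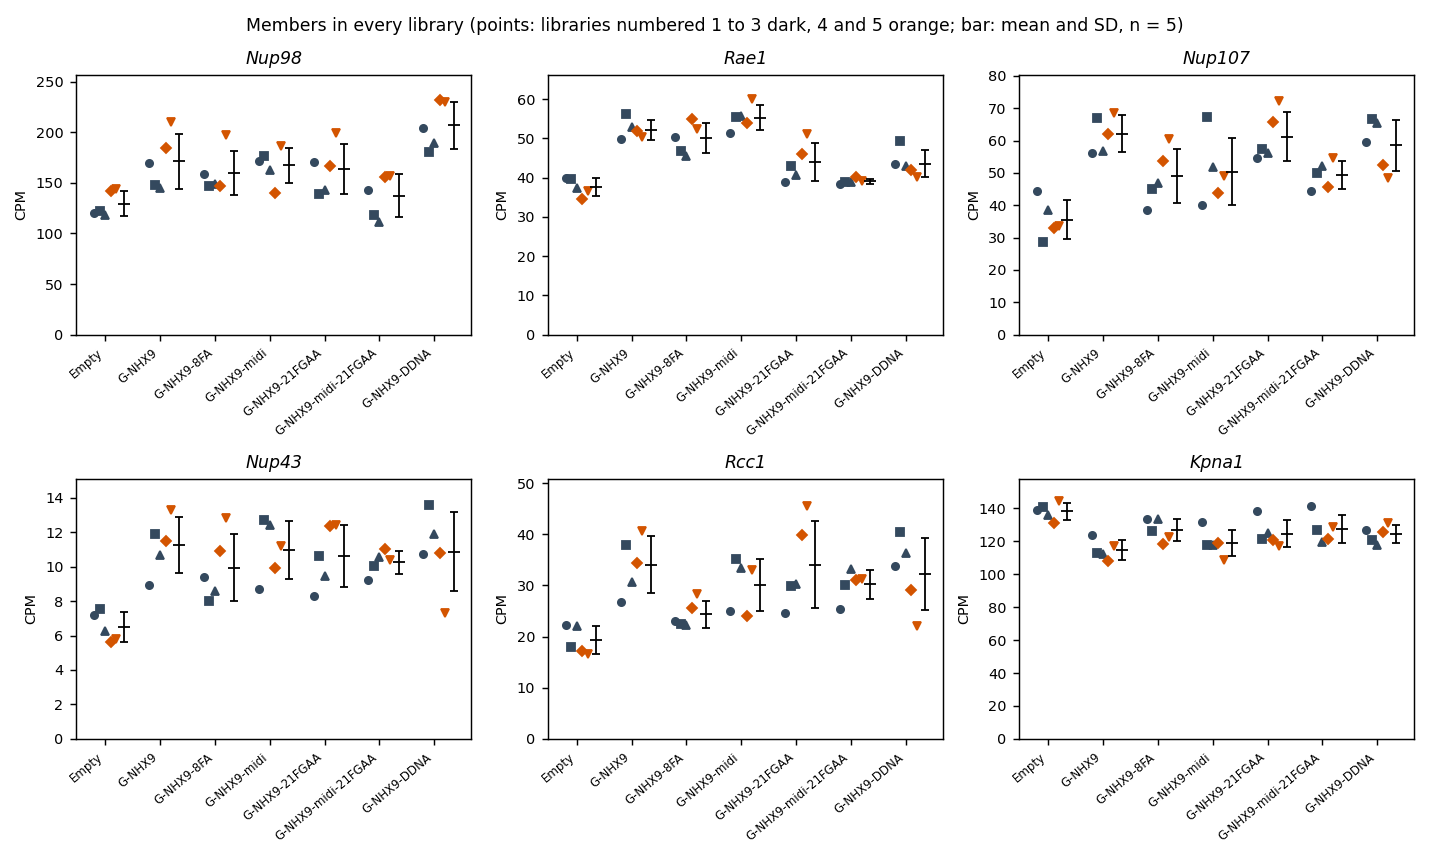
CPM (linear axis from 0) of Nup98, Rae1, Nup107, Nup43, Rcc1 and Kpna1 in every library of the 7 groups, with libraries numbered 1 to 3 in dark and 4 and 5 in orange, and the mean and SD of 5 libraries as a bar. Rae1 separates G-NHX9, G-NHX9-8FA and G-NHX9-midi from Empty, Nup98 is highest in G-NHX9-DDNA, and Kpna1 is lower in G-NHX9 than in Empty.

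The Y complex is the largest scaffold unit of the pore, and some of its subunits also sit at kinetochores in mitosis. Of its 7 members, 6 rose in G-NHX9, 4 in G-NHX9-8FA, 7 in G-NHX9-midi, 6 in G-NHX9-21FGAA and 5 in both G-NHX9-midi-21FGAA and G-NHX9-DDNA, and none fell. Median log2 differences were 0.44, 0.19, 0.50, 0.50, 0.38 and 0.41 in the same order. Nup107, the subunit that gives the complex its other name, measured 44.3, 28.5, 38.4, 32.9 and 33.7 CPM in Empty, 56.1, 67.04, 56.7, 61.9 and 68.5 in G-NHX9 and 38.5, 45.2, 46.9, 53.6 and 60.4 in G-NHX9-8FA. It measured 40.2, 67.3, 51.8, 43.7 and 49.2 CPM in G-NHX9-midi and 54.6, 57.5, 56.01, 65.6 and 72.3 in G-NHX9-21FGAA. It measured 44.3, 49.97, 52.1, 45.6 and 54.6 CPM in G-NHX9-midi-21FGAA and 59.4, 66.8, 65.4, 52.5 and 48.6 in G-NHX9-DDNA. Libraries of G-NHX9, G-NHX9-21FGAA and G-NHX9-DDNA were all above Empty 1, the highest Empty library, those of G-NHX9-8FA and G-NHX9-midi reached below it, and G-NHX9-midi-21FGAA 1 was level with it. Nup107 rose by 0.80 ± 0.13 in G-NHX9 and 0.78 ± 0.13 in G-NHX9-21FGAA (edgeR adjusted p = 1.3e-05 and 5.6e-05). Its rises in the other constructs were 0.46 ± 0.13 in G-NHX9-8FA, 0.50 ± 0.13 in G-NHX9-midi, 0.47 ± 0.13 in G-NHX9-midi-21FGAA and 0.72 ± 0.13 in G-NHX9-DDNA. That in G-NHX9-8FA did not pass without G-NHX9-8FA 5 (0.36, edgeR adjusted p = 0.054).

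Nup43 encodes a small propeller subunit of the same complex and overlaps Pcmt1 on the other strand. Nup43 was at 7.20, 7.55, 6.24, 5.64 and 5.82 CPM in Empty, 8.92, 11.9, 10.7, 11.5 and 13.3 in G-NHX9 and 9.37, 8.03, 8.56, 10.9 and 12.8 in G-NHX9-8FA. It was at 8.67, 12.7, 12.4, 9.90 and 11.2 CPM in G-NHX9-midi and 8.31, 10.6, 9.47, 12.4 and 12.4 in G-NHX9-21FGAA. Every library of these 4 constructs lay above every Empty library. Nup43 was at 9.24, 10.01, 10.5, 11.01 and 10.4 CPM in G-NHX9-midi-21FGAA, also all above Empty, and at 10.7, 13.6, 11.9, 10.8 and 7.32 CPM in G-NHX9-DDNA, whose library 5 lay within the range of Empty. Its rises were 0.79 ± 0.15 in G-NHX9 and 0.76 ± 0.15 in G-NHX9-midi (edgeR adjusted p = 9.7e-05 and 0.00011), and between 0.61 and 0.74 in the other 4.

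Nup37 measured 15.8, 13.3, 13.4, 11.98 and 11.8 CPM in Empty, 18.5, 24.2, 21.2, 19.5 and 20.2 in G-NHX9-midi and 16.9, 19.7, 19.3, 16.9 and 16.98 in G-NHX9. It measured 16.6, 15.7, 16.6, 19.8 and 17.7 CPM in G-NHX9-8FA and 16.6, 18.9, 17.8, 19.2 and 21.5 in G-NHX9-21FGAA. It measured 17.6, 17.5, 18.9, 16.8 and 15.7 CPM in G-NHX9-midi-21FGAA and 18.7, 21.5, 19.3, 15.1 and 13.7 in G-NHX9-DDNA. Its highest values were in G-NHX9-midi, where it rose by 0.64 ± 0.11 (edgeR adjusted p = 9.7e-06), against 0.38 to 0.50 in the other constructs. Only in G-NHX9-8FA, G-NHX9-midi-21FGAA and G-NHX9-DDNA did its range overlap with that of Empty. Nup85 measured 40.4, 32.99, 34.5, 28.8 and 31.4 CPM in Empty, 45.3, 55.9, 50.8, 53.6 and 70.2 in G-NHX9 and 35.5, 34.6, 33.8, 40.3 and 43.03 in G-NHX9-8FA. It measured 37.7, 50.1, 44.6, 35.6 and 47.3 CPM in G-NHX9-midi, 42.2, 53.4, 48.7, 67.4 and 76.7 in G-NHX9-21FGAA, 48.1, 52.1, 58.2, 56.6 and 56.8 in G-NHX9-midi-21FGAA and 56.9, 63.6, 58.1, 52.8 and 39.6 in G-NHX9-DDNA. G-NHX9, G-NHX9-21FGAA and G-NHX9-midi-21FGAA lay above Empty without overlap, and Nup85 rose by 0.71 ± 0.14, 0.78 ± 0.14 and 0.69 ± 0.14 there (edgeR adjusted p = 0.00016, 0.00013 and 0.0013). In G-NHX9-midi the rise was 0.36 ± 0.14 (edgeR adjusted p = 0.039), and over the alternative fits that p lay between 0.012 and 0.27. In G-NHX9-8FA, 4 of 5 libraries lay within the range of Empty, and the difference was 0.16 ± 0.14 (edgeR adjusted p = 0.45).

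Seh1l, whose product also belongs to a complex that regulates mTORC1, had close values within Empty. It was at 52.3, 54.9, 53.4, 52.8 and 53.1 CPM in Empty, 71.5, 87.9, 76.7, 69.2 and 75.2 in G-NHX9-midi and 57.2, 61.2, 60.1, 60.03 and 64.8 in G-NHX9. All G-NHX9-midi libraries were above all libraries of the other 2 groups, with a rise of 0.51 ± 0.070 over Empty (edgeR adjusted p = 3.8e-07). The rises of Seh1l in G-NHX9 and G-NHX9-8FA (0.19 ± 0.070 and 0.19 ± 0.070) each held in 1 of 10 fits that left out 1 library. Nup133 rose by 0.30 to 0.40 in the 5 constructs other than G-NHX9-8FA, and Nup160 passed in G-NHX9-midi alone (0.45 ± 0.14, edgeR adjusted p = 0.011).

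The bases before the start sites of genes that rose in every construct are shown for the letters they hold. In RefSeq promoter windows of GRCm38.p6, from 250 bases before to 50 after the start, 35 of the 43 members had an entry, with 41 windows. Of the members that rose everywhere, Nup107, Nup37, Ndc1 and Aaas had one. Letters searched on both strands were CCGGAAG (the core of ETS family sites) and, for the core of NRF1 sites, GCGC followed by A, any base and GCGC, and matches are in capitals in the 250 bases before the start of Nup107 (chr10:117792706-117792955, minus strand), Nup37 (chr10:88146742-88146991, plus strand) and Aaas (chr15:102350760-102351009, minus strand).

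Nup107: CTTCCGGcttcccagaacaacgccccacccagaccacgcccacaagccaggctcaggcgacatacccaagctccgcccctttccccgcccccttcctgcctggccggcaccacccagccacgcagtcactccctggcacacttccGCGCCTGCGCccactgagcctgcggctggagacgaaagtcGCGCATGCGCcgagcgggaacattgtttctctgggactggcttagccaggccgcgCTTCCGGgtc
Nup37: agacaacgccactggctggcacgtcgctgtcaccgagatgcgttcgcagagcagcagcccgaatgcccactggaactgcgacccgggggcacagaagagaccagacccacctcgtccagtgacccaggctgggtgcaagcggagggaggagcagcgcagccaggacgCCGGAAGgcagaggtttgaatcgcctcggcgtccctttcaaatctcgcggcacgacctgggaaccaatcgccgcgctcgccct
Aaas: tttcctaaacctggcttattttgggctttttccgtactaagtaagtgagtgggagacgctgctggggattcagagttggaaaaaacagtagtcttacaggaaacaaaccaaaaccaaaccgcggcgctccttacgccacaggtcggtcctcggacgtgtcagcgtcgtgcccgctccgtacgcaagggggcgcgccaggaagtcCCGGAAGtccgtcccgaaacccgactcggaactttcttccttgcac

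Nup107 held 2 matches of each motif, the nearest of them 10 to 4 bases before its start, and Nup37 and Aaas held 1 CCGGAAG each, 83 to 77 and 46 to 40 bases before theirs. The window of Ndc1 held neither. Over the 41 member windows, 19.5% held CCGGAAG and 19.5% held the NRF1 core, against 8.86% and 4.60% of all 32851 windows. GGGCGG was present in 68.3% against 35.7%, CACGTG in 12.2% against 7.15%, CCAAT in 48.8% against 37.4% and TATAAA in 9.76% against 13.6%. Member windows were also richer in G and C, with a median of 64.3% against 52.7%, and the part of this composition in the shares was not tested.

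The inner ring connects the scaffold to the channel. Of its 5 members, 2 rose in G-NHX9, none in G-NHX9-8FA, 1 in G-NHX9-midi and 3 in each of G-NHX9-21FGAA, G-NHX9-midi-21FGAA and G-NHX9-DDNA. Nup35, which encodes a membrane-binding subunit, measured 9.60, 10.3, 9.75, 7.73 and 7.99 CPM in Empty, 14.3, 13.6, 17.04, 17.3 and 15.8 in G-NHX9-midi-21FGAA and 11.7, 13.5, 11.7, 17.3 and 18.8 in G-NHX9-21FGAA. It measured 11.8, 11.8, 13.3, 9.62 and 11.3 CPM in G-NHX9, 10.4, 10.4, 10.6, 11.5 and 10.8 in G-NHX9-8FA, 11.7, 13.9, 12.7, 11.02 and 12.9 in G-NHX9-midi and 13.4, 15.8, 16.9, 11.96 and 8.47 in G-NHX9-DDNA. Both 21FGAA groups lay above Empty without overlap, and the rises were 0.78 ± 0.14 and 0.69 ± 0.14 (edgeR adjusted p = 7e-04 and 6e-04). In G-NHX9 and G-NHX9-8FA the differences were 0.35 ± 0.14 and 0.24 ± 0.14 and did not pass (edgeR adjusted p = 0.06 and 0.23). Nup155 and Nup205 rose in G-NHX9, G-NHX9-21FGAA, G-NHX9-midi-21FGAA and G-NHX9-DDNA, by 0.40 to 0.56 and by 0.27 to 0.36, and neither passed in G-NHX9-8FA or G-NHX9-midi. Nup93 and Nup188 passed nowhere against Empty.

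Among membrane nucleoporins, Ndc1 rose in every construct. Ndc1 measured 47.02, 42.4, 38.9, 40.7 and 38.97 CPM in Empty, 71.8, 72.5, 68.3, 59.7 and 53.6 in G-NHX9-DDNA and 56.6, 61.7, 54.9, 58.01 and 76.4 in G-NHX9. It measured 58.5, 46.4, 47.2, 63.5 and 69.6 CPM in G-NHX9-8FA, 57.8, 79.3, 64.7, 50.7 and 66.4 in G-NHX9-midi, 58.7, 57.7, 56.7, 74.05 and 78.5 in G-NHX9-21FGAA and 54.01, 54.5, 52.8, 55.4 and 57.9 in G-NHX9-midi-21FGAA. Of the 30 construct libraries, G-NHX9-8FA 2 alone was not above the highest Empty library. The rises were 0.65 ± 0.12 in G-NHX9-DDNA and 0.65 ± 0.12 in G-NHX9-21FGAA (edgeR adjusted p = 0.00077 and 0.00021) and between 0.40 and 0.62 in the others, that of G-NHX9-midi-21FGAA being lost without Empty 3 (edgeR adjusted p = 0.051). Aaas encodes ALADIN, a nucleoporin held at the pore by NDC1, and rose by 0.25 to 0.40. Its rise in G-NHX9-8FA (0.25 ± 0.078, edgeR adjusted p = 0.017) held in 5 of 10 fits that left out 1 library. Nup210 passed in G-NHX9 (0.46 ± 0.15, edgeR adjusted p = 0.019) and in no other construct, although its difference in G-NHX9-DDNA was 0.40 ± 0.15. Pom121 passed nowhere and is described with the library numbers below.

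In the central channel and on the cytoplasmic side of the pore, at most 1 of 2 genes was called in any construct. Nup54 rose in G-NHX9-midi (0.31 ± 0.11, edgeR adjusted p = 0.022), and its differences elsewhere were between 0.20 and 0.29. Nup62, which encodes the central channel protein, had differences from -0.15 to -0.27 in all 6 constructs and passed as lower in G-NHX9-21FGAA (-0.27 ± 0.099, edgeR adjusted p = 0.041). The span of Nup62 overlaps Il4i1 on the same strand and Atf5 on the other, so another counting rule could assign its reads differently. Nup88 rose by 0.16 to 0.21 in G-NHX9, G-NHX9-midi and G-NHX9-21FGAA, and Nup214 passed in none. On the nuclear basket, Nup153 rose by 0.29 to 0.45 in the 5 constructs other than G-NHX9-8FA. Nup50, whose product helps release cargo from importins, rose by 0.26 to 0.33 in 4 of them, and Tpr passed in none.

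Exportins carry proteins and RNA out of the nucleus. Of 4 genes, 2 rose in G-NHX9, 1 in G-NHX9-midi, none in G-NHX9-8FA and 3 in each of the other constructs. Xpo1, the main protein exportin, measured 207, 159, 158, 132 and 156 CPM in Empty, 269.98, 254, 236, 207 and 181 in G-NHX9-DDNA and 208, 203, 159, 165 and 236 in G-NHX9. It measured 156, 144, 172, 138 and 159 CPM in G-NHX9-8FA, 189, 216, 178, 135 and 125 in G-NHX9-midi, 239, 195, 204, 202 and 216 in G-NHX9-21FGAA and 237, 211, 209, 187 and 208 in G-NHX9-midi-21FGAA. Its Empty range was wide, from 132 to 207 CPM, and reached into that of every construct. Xpo1 rose by 0.50 ± 0.13 in G-NHX9-DDNA (edgeR adjusted p = 0.009), a call lost without the 3 libraries of other ages, and its difference in G-NHX9 (0.26 ± 0.13, edgeR adjusted p = 0.14) passed with the replicate block (0.27, edgeR adjusted p = 0.049). In G-NHX9-21FGAA and G-NHX9-midi-21FGAA the rises were 0.38 ± 0.13 and 0.38 ± 0.13 (edgeR adjusted p = 0.03 and 0.048), and the latter held in 1 of 10 fits that left out 1 library. The former was lost without Empty 4 or 5, without G-NHX9-21FGAA 1 or 5 (edgeR adjusted p = 0.053 to 0.084), without the 3 libraries of other ages (edgeR adjusted p = 0.20) and with only the libraries numbered 1 to 3 (edgeR adjusted p = 0.11). Xpo5, the exporter of microRNA precursors, was the most widespread of the group. It was at 29.7, 33.5, 27.3, 28.3 and 29.3 CPM in Empty, 47.1, 43.5, 51.1, 41.6 and 45.6 in G-NHX9-midi and 40.2, 44.05, 43.4, 38.7 and 59.04 in G-NHX9, without overlap with Empty, and rose by 0.63 ± 0.12 and 0.60 ± 0.12 (edgeR adjusted p = 1e-04 and 0.00026). Cse1l, which returns importin alpha to the cytoplasm, rose by 0.36 to 0.43 in 4 constructs, with differences of -0.01 ± 0.11 in G-NHX9-8FA and 0.07 ± 0.11 in G-NHX9-midi.

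In the importin beta family, 2 of 7 genes rose in G-NHX9, none in G-NHX9-8FA, where Ipo5 fell, and 3 in each other construct. Kpnb1, which carries most classical import, measured 201, 199, 201, 184 and 223 CPM in Empty, 220.3, 265, 247, 251 and 367 in G-NHX9 and 231, 268, 246, 321 and 379 in G-NHX9-21FGAA. It measured 207, 226, 229, 189 and 241 CPM in G-NHX9-8FA, 252, 255, 267, 225 and 251 in G-NHX9-midi, 247, 259, 279, 287 and 323 in G-NHX9-midi-21FGAA and 276, 316, 316, 299.97 and 246 in G-NHX9-DDNA. Empty 5 was the highest of its group, and G-NHX9-midi, G-NHX9-21FGAA, G-NHX9-midi-21FGAA and G-NHX9-DDNA lay above it in full. Rises were 0.53 ± 0.12 in G-NHX9-DDNA, 0.52 ± 0.12 in G-NHX9-21FGAA and 0.47 ± 0.12 in G-NHX9-midi-21FGAA (edgeR adjusted p = 0.003, 0.0015 and 0.0071). The rise in G-NHX9 (0.42 ± 0.12, edgeR adjusted p = 0.0064) was lost without G-NHX9 5, and that in G-NHX9-midi (0.31 ± 0.12, edgeR adjusted p = 0.036) held in 3 of 10 such fits. Ipo11 was at 39.8, 37.7, 36.02, 28.7 and 30.9 CPM in Empty, 47.97, 48.4, 46.4, 53.6 and 53.6 in G-NHX9-21FGAA and 47.8, 48.6, 49.9, 47.9 and 51.98 in G-NHX9-midi-21FGAA, with both constructs above Empty without overlap. It rose by 0.53 ± 0.11 and 0.51 ± 0.11 there (edgeR adjusted p = 0.00045 and 0.0019) and by 0.38 ± 0.11 in G-NHX9-DDNA, against 0.14 ± 0.11 in G-NHX9, which did not pass. Ipo7 rose in G-NHX9 (0.46 ± 0.16) and G-NHX9-midi (0.53 ± 0.16), and Tnpo3, the importer of SR splicing factors, rose by 0.18 to 0.24 in 4 constructs.

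Members that fell were few, and most were importins. Kpna1, an importin alpha adaptor, lies at chr16:35978750-36037131 on the plus strand. It measured 139, 141, 136, 131 and 144 CPM in Empty, 124, 113, 112, 108 and 117 in G-NHX9 and 131, 118, 118, 119 and 109 in G-NHX9-midi. It measured 133, 126, 134, 118 and 123 CPM in G-NHX9-8FA, 138, 122, 125, 120.5 and 117 in G-NHX9-21FGAA, 141, 127, 119.8, 121 and 128 in G-NHX9-midi-21FGAA and 127, 121, 117, 126 and 131 in G-NHX9-DDNA. Every G-NHX9 library was below every Empty library, and Kpna1 fell by 0.27 ± 0.062 there (edgeR adjusted p = 0.0011) and by 0.22 ± 0.062 in G-NHX9-midi (edgeR adjusted p = 0.0054). In the other 4 constructs its differences were between -0.12 and -0.15 and did not pass, although that in G-NHX9-DDNA did with the replicate block (-0.15, edgeR adjusted p = 0.031). Ipo5 fell by 0.21 ± 0.073 in G-NHX9-8FA and Kpna4 by 0.31 ± 0.10 in G-NHX9-midi-21FGAA (edgeR adjusted p = 0.032 and 0.033). All 5 falls, that of Nup62 included, were lost when libraries were scaled by their totals without TMM. The median of all tested genes was between 0.08 and 0.19 under that scaling, that of members between 0.16 and 0.53, and Kpna1 was then at -0.09 in both G-NHX9 (edgeR adjusted p = 0.24) and G-NHX9-midi (edgeR adjusted p = 0.19). Kpna2, the importin alpha of dividing cells, differed in direction from Kpna1 and rose by 0.49 to 0.55 in G-NHX9, G-NHX9-21FGAA, G-NHX9-midi-21FGAA and G-NHX9-DDNA, and Kpna3 passed in no construct.

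The Ran cycle was the most uniform group. Ran, Rangap1 and Rcc1 all rose in 5 constructs, with median log2 differences of 0.55, 0.51, 0.60, 0.58 and 0.58 in G-NHX9, G-NHX9-midi, G-NHX9-21FGAA, G-NHX9-midi-21FGAA and G-NHX9-DDNA, and none passed in G-NHX9-8FA, where the median was 0.28. Ran was at 267, 228, 223, 187 and 216 CPM in Empty, 279, 325, 293, 399 and 408 in G-NHX9-21FGAA and 291, 349, 328, 304 and 371 in G-NHX9. It was at 243, 256, 263, 320.2 and 282 CPM in G-NHX9-8FA, 288, 339.6, 306, 322 and 337 in G-NHX9-midi, 301, 303, 338, 342 and 336 in G-NHX9-midi-21FGAA and 329.6, 399, 367, 298 and 248 in G-NHX9-DDNA. Empty 1 was the highest Empty library, and G-NHX9-8FA and G-NHX9-DDNA 5 overlapped with it. Ran rose by 0.60 ± 0.12 in G-NHX9-21FGAA and 0.55 ± 0.12 in G-NHX9 (edgeR adjusted p = 0.00026 and 0.00036), and its 5 calls held in all 10 fits that left out 1 library. Near-identical processed copies of Ran exist in the genome, and how reads shared with them were counted is not given in the sources used here.

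Rcc1 had the largest log2 differences of the 3 genes in every construct. Rcc1 measured 22.3, 17.9, 22.2, 17.3 and 16.7 CPM in Empty, 26.7, 37.95, 30.7, 34.3 and 40.5 in G-NHX9 and 24.6, 29.98, 30.3, 39.9 and 45.6 in G-NHX9-21FGAA. It measured 23.1, 22.4, 22.3, 25.7 and 28.3 CPM in G-NHX9-8FA, 25.1, 35.1, 33.3, 24.1 and 32.9 in G-NHX9-midi, 25.4, 30.1, 33.2, 31.01 and 31.3 in G-NHX9-midi-21FGAA and 33.7, 40.4, 36.3, 29.1 and 22.1 in G-NHX9-DDNA. All libraries of G-NHX9, G-NHX9-midi, G-NHX9-21FGAA and G-NHX9-midi-21FGAA were above those of Empty, and G-NHX9-DDNA 5 was not. Rcc1 rose by 0.82 ± 0.15 in G-NHX9, 0.82 ± 0.15 in G-NHX9-21FGAA and 0.64 ± 0.15 in G-NHX9-midi (edgeR adjusted p = 1e-04, 0.00022 and 0.0011). In G-NHX9-8FA the difference was 0.34 ± 0.15 (edgeR adjusted p = 0.11). Its span, chr4:132331919-132353605 on the minus strand, also holds Snhg3 and the small nucleolar RNA genes Snora73a and Snora73b on the same strand, so reads of these genes and of Rcc1 could be assigned differently by another counting rule. Over all members, 22 have a gene on the other strand within their span, 15 one on the same strand, and 16 none.

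The other genes of nuclear transport gave a comparison outside the 43. Of 30 listed (cargo adaptors, RNA export factors, further importins and nucleoporins), 28 were tested, and 8, 6, 12, 11, 10 and 9 rose in G-NHX9, G-NHX9-8FA, G-NHX9-midi, G-NHX9-21FGAA, G-NHX9-midi-21FGAA and G-NHX9-DDNA, with 1, 1, 3, 1, 0 and 1 lower. Of all tested genes, 16.9%, 13.4%, 20.5%, 14.7%, 9.59% and 9.85% were called higher in the same order. Those called lower were 15.2%, 13.2%, 20%, 12.5%, 7.32% and 7.35%. In G-NHX9, 32.1% of the 28 genes were called in either direction, as were 32.1% of all genes. Median differences of the 28 genes were 0.07, 0.10, 0.18, 0.14, 0.17 and 0.14. Rangrf, Ranbp1, Nutf2 and Rcc2 rose in all 6, as did 1.47% of all tested genes. The rise of Rangrf was 1.11 to 1.45. Ranbp1, which helps RANGAP1 discharge RAN, rose by 0.40 to 0.72, and Nutf2, the importer of RAN itself, by 0.37 to 0.65. Senp2, a SUMO protease found at the pore, fell in all but G-NHX9-midi-21FGAA, by 0.21 to 0.61 on the log2 scale. These 6 comparisons share the Empty libraries, and the lists were not tested against each other.

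The second question was how the mutants differed from the fusion that carries all FG motifs, or from the matched short form. Against G-NHX9, members were lower in G-NHX9-8FA and otherwise rarely called. In G-NHX9-8FA, 9 members were lower and 1 higher, where 14.5% of all genes were called, 8.04% lower and 6.43% higher. The 9 were Nup85, Nup205, Rcc1, Cse1l, Kpna2, Rangap1, Nup153, Nup133 and Ipo5, and the member that was higher was Kpna4 (0.29 ± 0.10). Median log2 difference over members was -0.21. Nup85 was lower by 0.56 ± 0.14 (edgeR adjusted p = 0.0056), Nup205 by 0.36 ± 0.10 (edgeR adjusted p = 0.013) and Rangap1 by 0.34 ± 0.11 (edgeR adjusted p = 0.034). For these 3 members every G-NHX9-8FA library lay below every G-NHX9 library, as it did for 5.69% of all genes. Rangap1 measured 104, 114, 103, 100.3 and 111 CPM in G-NHX9-8FA and 119, 144, 127, 132 and 149 in G-NHX9. Nup205 measured 107, 101, 96.3, 94.98 and 107 CPM in G-NHX9-8FA and 117, 118, 118, 124 and 171 in G-NHX9. In both genes the gap between the groups was narrow, and G-NHX9 5 was the highest library. The number called fell to 1 without G-NHX9 5, to 4 without G-NHX9-8FA 2 or 3, to 5 without G-NHX9 2 or G-NHX9-8FA 4 and to 6 without G-NHX9 4 or G-NHX9-8FA 1. Without TMM it was 19, all lower, and with DESeq2's size factors in edgeR 11, all lower. The Nup85 call held in every one of these fits. Proliferation genes moved the same way, with 12 of 17 lower in G-NHX9-8FA than in G-NHX9, and their part was not tested.

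In G-NHX9-midi, 1 member was higher and 2 lower than in G-NHX9, where 19.7% of all genes were called (8.5% higher and 11.2% lower). Seh1l was higher by 0.33 ± 0.070 (edgeR adjusted p = 0.00081) in all the fits made, and every G-NHX9-midi library lay above every G-NHX9 library, as for 5.42% of all genes. Nup205 and Cse1l were lower by 0.31 ± 0.10 and 0.32 ± 0.11 (edgeR adjusted p = 0.026 and 0.04), and Nup205 was the 1 member with every library below G-NHX9, as for 7.65% of all genes. The number called was 5 without G-NHX9 3, 6 without G-NHX9-midi 2 and 1 without G-NHX9 5, G-NHX9-midi 3 or G-NHX9-midi 4. In G-NHX9-21FGAA, Ipo11 was higher than in G-NHX9 by 0.39 ± 0.11 (edgeR adjusted p = 0.0088), without overlap with the 37.4, 40.8, 40.8, 31.6 and 40.1 CPM of G-NHX9 (every library was above for 6.38% of all genes), and Rae1 was lower, where 17.2% of all genes were called (8.91% higher and 8.34% lower). Those 2 calls became 1 without G-NHX9 2, G-NHX9-21FGAA 1 or G-NHX9-21FGAA 2, Ipo11 being kept. In G-NHX9-DDNA, Rae1 was the 1 member called, and it was lower, where 22.1% of all genes were called (10.7% higher and 11.4% lower) and 7.21% had every library below G-NHX9. The number in G-NHX9-DDNA was 4 without G-NHX9 5, 2 without G-NHX9-DDNA 5, and 4 (2 higher and 2 lower) with the library number as a replicate block. With only the libraries numbered 1 to 3 it was 12, all of them higher in G-NHX9-DDNA.

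Between the short forms the members split. In G-NHX9-midi-21FGAA against G-NHX9-midi, 12 members were higher and 6 lower, where 43.2% of all genes were called (21.0% higher and 22.2% lower), a share close to the 18 of 43 members. Lower were Rae1, Seh1l (-0.40 ± 0.070, edgeR adjusted p = 1.8e-05), Ipo7, Kpna4, Nup98 and Nup37. Higher were the inner ring genes Nup93, Nup155 and Nup205, the importins Kpna2, Kpna3, Ipo5, Ipo9 and Ipo11, the exportins Xpo1, Xpo7 and Cse1l, and Nup85. Kpna3 was higher by 0.46 ± 0.12, Ipo11 by 0.44 ± 0.11 and Nup93 by 0.38 ± 0.11 (edgeR adjusted p = 0.0015, 0.0011 and 0.0048). Every library was above G-NHX9-midi for 6 members and below it for 2, as for 14.2% and 15.9% of all genes. The call for Nup98 (-0.29 ± 0.12, edgeR adjusted p = 0.049) was lost in 13 of the 18 alternative fits, those for Nup37, Xpo1, Ipo7 and Nup85 in 14, 12, 11 and 10 of them, and 11 members rather than 18 were called without G-NHX9-midi-21FGAA 4. With DESeq2's size factors in edgeR 13 were higher and 3 lower, and with only the libraries numbered 1 to 3, 4 were higher and 7 lower. Of the proliferation genes, 8 of 17 were higher in G-NHX9-midi-21FGAA.

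**Figure D4:**
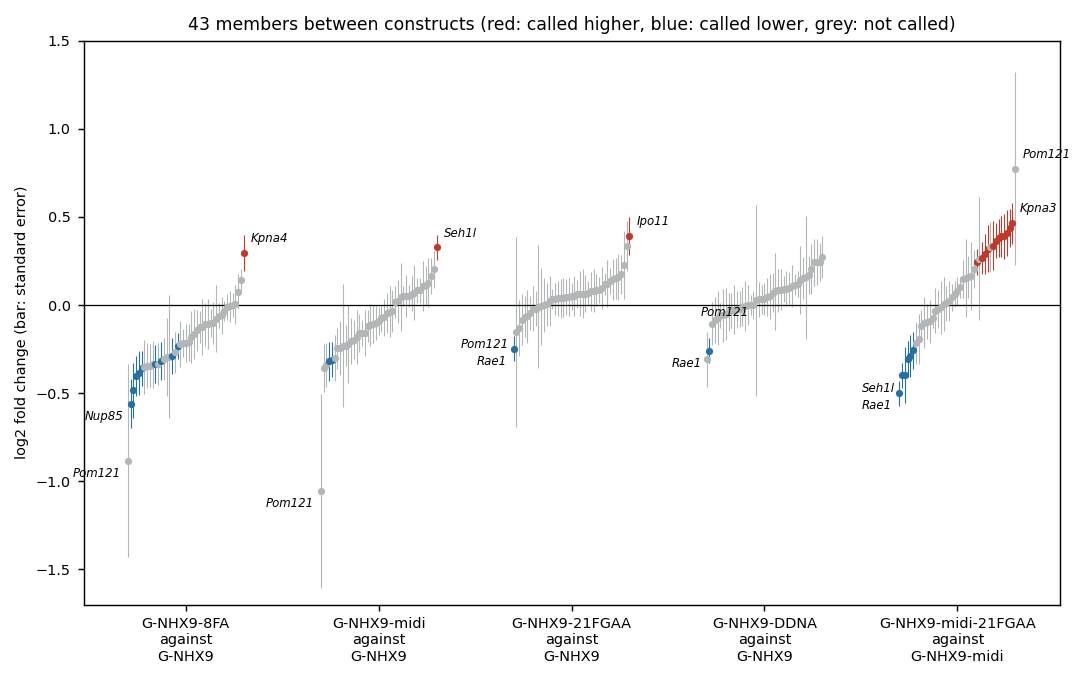
Log2 fold change with its standard error of each of the 43 members in the 5 comparisons between constructs, sorted within a comparison, with members called higher in red, lower in blue and not called in grey. Most red and blue points are in G-NHX9-midi-21FGAA against G-NHX9-midi, blue points prevail in G-NHX9-8FA against G-NHX9, and Pom121 has the widest bars with no call.

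The spread of some members followed the library numbers that the labels give within each group. Pom121, a membrane nucleoporin gene at chr5:135376141-135394546 on the minus strand, overlaps Nsun5 on the other strand and Mir7033 on its own. Pom121 measured 8.56, 11.1, 8.76, 32.7 and 34.8 CPM in Empty, 14.98, 8.99, 9.19, 30.8 and 61.98 in G-NHX9 and 23.05, 11.5, 12.6, 43.96 and 37.3 in G-NHX9-DDNA. It measured 7.04, 7.92, 8.80, 18.5 and 26.3 CPM in G-NHX9-8FA and 8.01, 9.21, 9.49, 7.27 and 26.5 in G-NHX9-midi. It measured 21.1, 12.3, 14.4, 21.3 and 44.3 CPM in G-NHX9-21FGAA and 15.5, 12.9, 9.06, 34.2 and 31.9 in G-NHX9-midi-21FGAA. Libraries 4 and 5 were above libraries 1 to 3 in 6 of 7 groups, G-NHX9-midi being the exception through its library 4. Its mean was 11.6 CPM over libraries 1 to 3 and 32.3 CPM over libraries 4 and 5. The log2 difference between libraries 4 and 5 and libraries 1 to 3, taken within each group and averaged over the 7 groups, was 1.40. Over all tested genes the 5th and 95th percentiles of that difference were -0.39 and 0.61, 202 genes (1.18%) exceeded 1 in size, and Pom121 was the 1 member among them. On the same averaged scale Nup214 differed by 0.87, Nup188 by 0.50, Ipo7 by -0.39 and Tpr by -0.37. The means of Nup214 were 29.6 CPM over libraries 1 to 3 and 55.1 CPM over libraries 4 and 5, and those of Ipo7 were 216.2 and 166 CPM. Pom121, Nup214, Nup188 and Tpr passed in none of the 11 comparisons. Ipo7, whose libraries 4 and 5 lay below libraries 1 to 3 in 5 of 7 groups, was called higher in G-NHX9 and G-NHX9-midi against Empty and lower in G-NHX9-midi-21FGAA against G-NHX9-midi. The labels do not say what the number stands for.

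**Figure D5:**
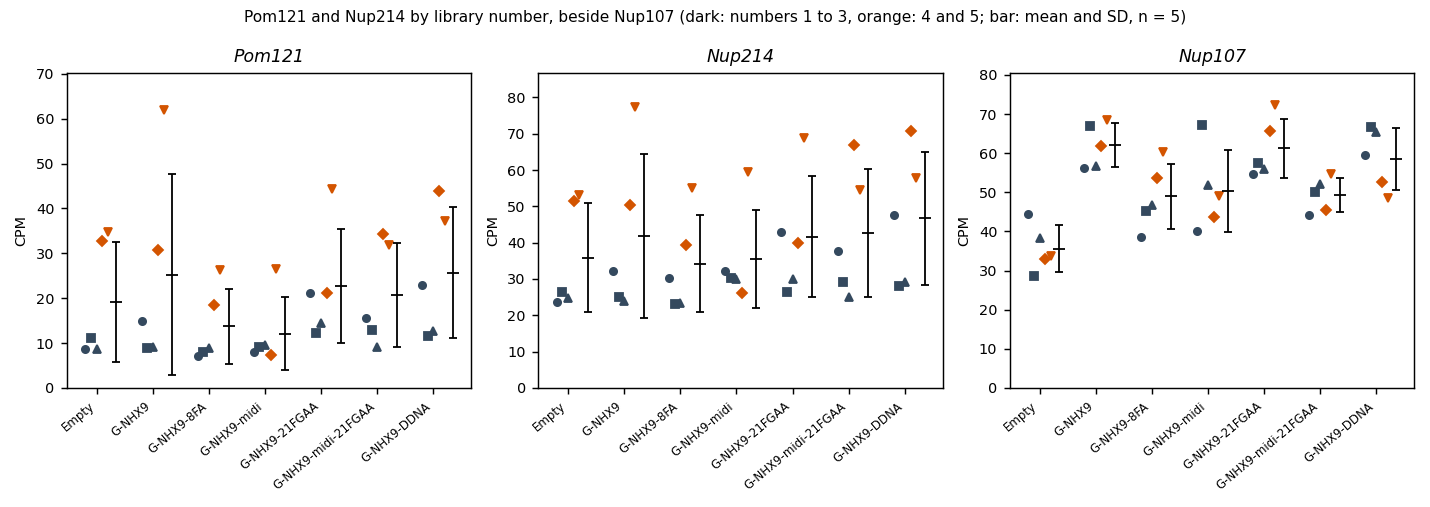
CPM (linear axis from 0) of Pom121, Nup214 and, beside them, Nup107 in every library of the 7 groups, with libraries numbered 1 to 3 in dark and 4 and 5 in orange, and the mean and SD of 5 libraries as a bar. In Pom121 and Nup214 the orange points lie above the dark ones in most groups (means over libraries 1 to 3 and over 4 and 5 of 11.6 and 32.3 CPM in Pom121), which is not so for Nup107.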

How the data were processed

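The authors deposited 1 table of raw counts of reads per gene for 35 libraries (stranded total RNA). The submitters' processing notes name STAR 2.7.0d, HTSeq 0.11.2, DESeq2 and mm10. The annotation and the strand setting of the counting are not given in the sources used here. Nothing was realigned. Groups were taken from the labels, and p-values measure the spread between the 5 libraries of a group, which the labels do not tie to separate animals or cultures. The study's methods describe cells of several mice prepared side by side and 3 transductions per virus, and how the 5 libraries relate to these is not given in the sources used here.

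The 43 members, their role groups and the other lists were chosen with earlier results of these data known. The analysis used edgeR 4.0.16 and limma 3.58.1 (R 4.3.3). Genes were filtered with filterByExpr, libraries scaled by TMM, and a quasi-likelihood model with 1 mean per group fitted to all 35 libraries. P-values were adjusted by Benjamini-Hochberg over the 17166 genes tested in each of 11 comparisons, with a threshold of 0.05. Alternatives were DESeq2 1.42.0, other scalings and filters, 2-group fits, the library number as a replicate block and leaving out each library. Fits without the 3 libraries of other ages and with libraries numbered 1 to 3 alone were added after seeing the data.

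All members may be named. Values in every library are given for Nup98, Rae1, Xpo1, Kpnb1, Ran and, per comparison with Empty, the 3 called members that rose or fell most with a mean of at least 5 CPM and no overlap between groups. Those of Xpo5, Seh1l, Ipo11, Rangap1, Nup205 and Pom121 were added after their values were seen.

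The library number was checked for pairing on deviations from group means, which correlated at 0.232 on average where the number was shared and at -0.057 where it was not. Every pair exceeded 0.1 in 5 comparisons (G-NHX9, G-NHX9-midi-21FGAA and G-NHX9-DDNA against Empty, G-NHX9-21FGAA and G-NHX9-DDNA against G-NHX9). The reported calls do not use this pairing, which enters only in the alternative fit with the replicate block. With the block, 28, 29 and 30 members rather than 25, 23 and 24 were called in those 3 comparisons against Empty. In the 2 against G-NHX9, 2 and 4 rather than 2 and 1 were called. Positions are from GENCODE M21 and promoters from RefSeq (GRCm38.p6). Figures were drawn in Python 3.11.15 with pandas 2.3.3, numpy 2.4.6 and matplotlib 3.10.9.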

Additional observations from a re-analysis of the deposited data

Results flagged for a closer look

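The 105 sets of 5 libraries examined were the members named by the rule, Pom121 and the summed CPM of all members, each in 7 groups. Of these sets, 3 held a library whose distance from the nearest other exceeded 0.71 of the range of its group. At 1 in 20, 5.25 would be expected. Pom121 in G-NHX9-midi had a ratio of 0.885, with library 5 at 26.5 CPM and the other 4 at 7.28 to 9.49 CPM. Pom121 in G-NHX9-21FGAA had a ratio of 0.720, with library 5 at 44.3 CPM and the others at 12.3 to 21.3 CPM. Nup98 in G-NHX9-8FA had a ratio of 0.755, with library 5 at 197.6 CPM and the others at 146.4 to 158.9 CPM.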

How the results depend on the processing

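No member called in any of the 11 comparisons changed direction under another scaling, and of 2704 values of named members under the alternatives 2511 kept their side of the threshold, 148 lost it and 45 gained it. Counts of members called were within 1.5 times the reported ones under DESeq2 and its size factors. Without TMM, 19 rather than 10 were called in G-NHX9-8FA against G-NHX9. Without the filter, 5 were called in G-NHX9-8FA and 15 in G-NHX9-midi against Empty, and 4, 1, 1 and 0 in G-NHX9-8FA, G-NHX9-midi, G-NHX9-21FGAA and G-NHX9-DDNA against G-NHX9. With 2 groups in each fit, 5 were called in G-NHX9-8FA against Empty and 4, 1 and 1 in G-NHX9-8FA, G-NHX9-midi and G-NHX9-21FGAA against G-NHX9. With the replicate block, 19, 6 and 4 were called in G-NHX9-8FA, G-NHX9-midi and G-NHX9-DDNA against G-NHX9, and no other count moved by over 1.5 times. Nup98 in G-NHX9-8FA passed with that block (edgeR adjusted p = 0.0037), as did Kpna1 in G-NHX9-21FGAA (edgeR adjusted p = 0.022). Without the 3 libraries of other ages, 3, 13, 12 and 15 were called in G-NHX9-8FA, G-NHX9-midi, G-NHX9-midi-21FGAA and G-NHX9-DDNA against Empty. Calls over all genes were also fewer there. With libraries numbered 1 to 3, 3, 17 and 13 were called in G-NHX9-8FA, G-NHX9-21FGAA and G-NHX9-midi-21FGAA against Empty, 5, 1 and 12 in G-NHX9-8FA, G-NHX9-midi and G-NHX9-DDNA against G-NHX9, and 11 in G-NHX9-midi-21FGAA against G-NHX9-midi. These fits hold fewer libraries, and the cause of the other changes was not tested. Leaving out 1 library gave 16 to 25, 5 to 7, 16 to 23, 22 to 29, 17 to 25 and 21 to 26 members for G-NHX9, G-NHX9-8FA, G-NHX9-midi, G-NHX9-21FGAA, G-NHX9-midi-21FGAA and G-NHX9-DDNA against Empty, 1 to 13, 1 to 6, 1 to 3 and 1 to 4 for G-NHX9-8FA, G-NHX9-midi, G-NHX9-21FGAA and G-NHX9-DDNA against G-NHX9, and 11 to 16 for G-NHX9-midi-21FGAA against G-NHX9-midi.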
